A study of Mus musculus with 3 samples.

Results

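The 10 genes described here are the NF-kB subunits, 4 genes of the IkB family and the gene of A20, out of 17250 gene names in the bone marrow (BM) transcriptome of LECT2-treated mice. The members were taken by symbol. They are the subunits Nfkb1, Nfkb2, Rel, Rela and Relb, the IkB genes Nfkbia, Nfkbib, Nfkbie and Nfkbiz, and Tnfaip3, which encodes the ubiquitin-editing enzyme A20. Each had 1 row in each of the 3 deposited tables, and all 10 had at least 1 RPKM in every library. LECT2 is a chemotactic protein that the liver secretes into the blood, and the recombinant protein used here was made in Chinese hamster ovary cells and passed over an endotoxin-removal column. C57BL/6 mice of 6 to 8 weeks of age received it subcutaneously at 300 μg per kg once daily, for 3 or for 5 days, and the 0-day mice have no injection in their labels. Cells were flushed with PBS from femur, tibia, pelvis and humerus, and 1 RNA-sequencing library of oligo(dT)-selected RNA represents each time point, so no comparison of time points has a replicate. How many mice gave each library is not given in the sources used here.

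NF-kB is a family of dimeric transcription factors that act downstream of the receptors for TNF and IL-1, of Toll-like receptors and of several receptors of the TNF family. In resting cells the IkB proteins bind the dimers and keep most of them in the cytoplasm, and a stimulus leads the IkB kinase (IKK) complex to mark IkB for degradation. Several of these regulators, above all Nfkbia and Tnfaip3, are themselves transcribed by NF-kB, so that they act as negative feedback. BM macrophages, monocytes and neutrophils all use this pathway.

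The sequences before the starts of several members are shown because these genes are known as targets of NF-kB themselves. The sequences come from RefSeq (GRCm38.p6), whose promoter table held 7 of the 10 members, all except Nfkb1, Relb and Nfkbiz. Each sequence is printed 5′ to 3′ on the strand of the gene, and the capitals mark matches to the kB consensus, a run of G and a purine followed, after a pair of free bases, by a pair of pyrimidines and a closing pair of C, searched on both strands. Nfkbia is on the minus strand at chr12:55492648-55492777, Rel on the minus strand at chr11:23770970-23771099 and Nfkbie on the plus strand at chr17:45555570-45555699, and each printed stretch is the 130 bases just before the start site.
Nfkbia: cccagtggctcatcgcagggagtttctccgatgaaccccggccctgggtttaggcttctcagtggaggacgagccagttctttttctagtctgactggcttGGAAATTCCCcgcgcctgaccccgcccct
Rel: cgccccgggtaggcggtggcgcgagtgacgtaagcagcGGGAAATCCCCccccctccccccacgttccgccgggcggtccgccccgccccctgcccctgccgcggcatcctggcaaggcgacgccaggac
Nfkbie: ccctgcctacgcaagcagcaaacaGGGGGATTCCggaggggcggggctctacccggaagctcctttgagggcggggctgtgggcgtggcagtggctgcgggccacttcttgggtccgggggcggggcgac

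Tnfaip3 and Nfkb2 each held matches at separate places, and short windows around them are printed. Those of Tnfaip3 lie on the minus strand at chr10:19015516-19015545 and chr10:19015411-19015440, and those of Nfkb2 on the plus strand at chr19:46304689-46304718 and chr19:46304709-46304736 for its listed start 1, chr19:46305449-46305478 for start 2 and chr19:46305695-46305724 for start 3. The first Nfkb2 window, like that of Rel, holds overlapping matches. In GENCODE M21 the Tnfaip3 gene reaches to 19015657 and the Nfkb2 gene starts at 46304320. All these windows, which lie before listed RefSeq starts, are therefore inside the GENCODE genes.
Tnfaip3, distal: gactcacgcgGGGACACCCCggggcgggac
Tnfaip3, proximal: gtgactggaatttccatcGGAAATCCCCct
Nfkb2, start 1, distal: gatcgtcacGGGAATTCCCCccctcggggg
Nfkb2, start 1, proximal: ccctcggggggccgaaaGGGGCTTTCCc
Nfkb2, start 2: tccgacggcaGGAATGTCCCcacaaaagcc
Nfkb2, start 3: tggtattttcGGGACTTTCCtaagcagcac

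A match began 29 bases before the start site in Nfkbia, and 92 bases before it in Rel. In Nfkbie the distance was 106 bases, in Tnfaip3 it was 125 and 12 bases for the second of its 2 listed starts, and in Nfkb2 it was 39 and 11 bases for the first of its 3 listed starts, 236 for the second and 225 for the third. In all, 5 of the 7 members with a promoter entry held a match in the 250 bases before a start, and Rela and Nfkbib did not. Among all 27025 genes in the table, 8.23% held one. These matches are descriptions of the letters and do not show binding.

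The libraries held between 15146983 and 15523952 reads on genes. RPKM scales a read count by the length of the gene in kilobases and by the total of these reads, and the changes below are log2 ratios of RPKM + 0.1. Each 95% interval was taken from both read counts by the exact Clopper-Pearson method and covers counting error only, since the reads carry no molecular identifiers and are not independent molecules. Over the 11144 genes whose mean reached 1 RPKM, the median log2 ratio against day 0 was 0.10 on day 3 and 0.31 on day 5, and it became 0.02 and 0.01 when edgeR's TMM factors scaled the counts. The ratios differed by gene length, with a median on day 5 of −0.19 in the 2789 shortest genes (76 to 1701 bases) and 0.71 in the 2785 longest (4080 bases or more). Values given without the trend on gene length had the whole fitted curve over length subtracted. They therefore also lack the shift shared by all genes, which TMM scaling takes out in large part as well. Markers of late neutrophils summed to 150033, 115996 and 41373 RPKM on days 0, 3 and 5, with all 11 of the 12 genes that reached 1 RPKM at least 2-fold lower on day 5 (10 without the trend on gene length) and none at 0 reads. Markers of macrophages and monocytes summed to 1362, 1623 and 2013 RPKM, with 7 of 13 genes at least 2-fold higher on day 5 (4 with TMM scaling, 5 without the trend on gene length) and none at 0 reads. Ly6c2 held most of this sum, and C1qa and C1qb were at 87.2% and 96.6% of their 0-day RPKM on day 5. Of all genes, 5.91% were at least 2-fold lower and 15.5% higher on day 5. In such mixed cells, fewer cells of a type and less RNA per cell cannot be told apart.

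At 0 days the IkB and A20 genes far outweighed the subunits. The summed level of the 4 IkB genes and Tnfaip3 was 1406 RPKM against 131 RPKM for the 5 subunits, a ratio of 10.7. At 3 days the sums were 706 and 137 RPKM, a ratio of 5.17, and at 5 days 294 and 144 RPKM, a ratio of 2.04. The IkB and A20 sum was lower in each later library, and the subunit sum differed by far less. The median log2 ratio of the subunits at 5 days depends on the scaling, at 0.00 with the deposited RPKM and −0.30 with TMM scaling. Both are the values of Rela. Under all the scalings run, Nfkb1 and Rel stayed above 0 at 5 days and Nfkb2 and Relb below it. Nfkbia alone held 64.5%, 47.6% and 39.2% of the summed RPKM of all 10 genes on days 0, 3 and 5. The ratios and shares within a library do not depend on how the libraries are scaled, but the trend on gene length does not cancel in them.

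**Figure D1:**
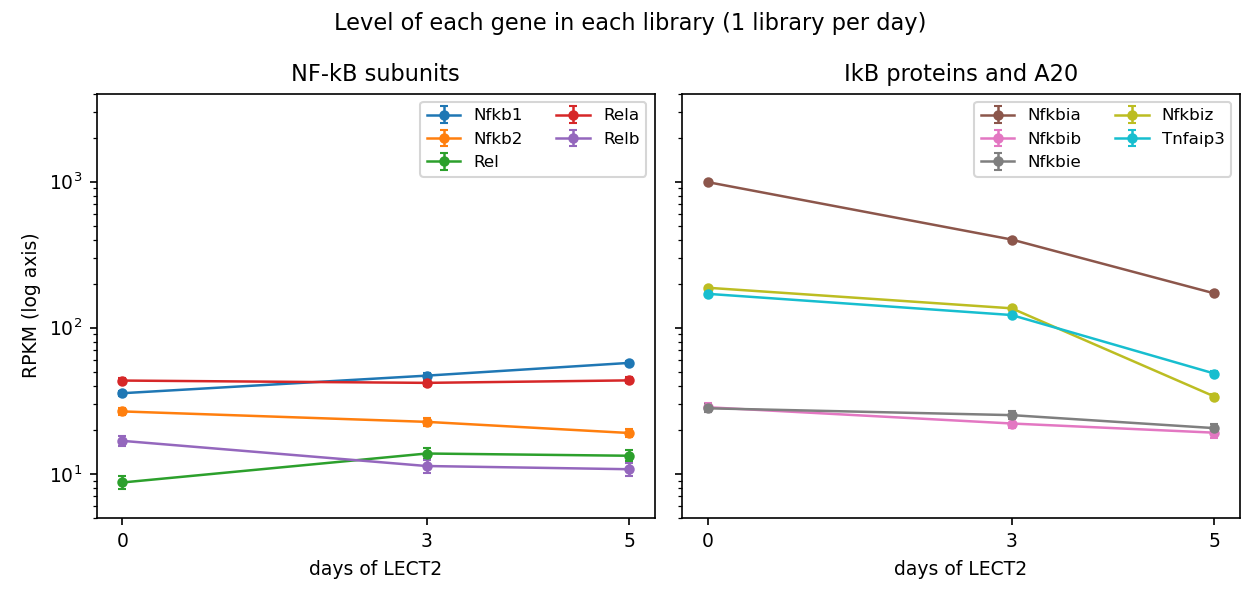
RPKM (log axis) of each of the 10 genes against days of LECT2, with 1 point per library and bars for the exact 95% Poisson interval of the count. Among the subunits no line leaves the range of 8.73 to 57.4 RPKM, whereas Nfkbia goes from 991 to 172 RPKM.

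At 3 days 1 of the 10 members was at least 2-fold lower than at 0 days and 0 were at least 2-fold higher. Among the 11325 genes with at least 1 RPKM in either library, 2.41% were lower and 4.08% higher by this measure. At 5 days 3 members were at least 2-fold lower than at 0 days and 0 higher, against 5.91% and 15.5% of 11497 genes. Between 3 and 5 days 3 members were again at least 2-fold lower and 0 higher, against 3.45% and 1.95% of 11375 genes. The 3 were Nfkbia, Nfkbiz and Tnfaip3 in both comparisons with the 5-day library, and Nfkbia in the comparison of 3 with 0 days. The comparisons share libraries and are not independent of each other. The median log2 ratio of the 10 members was −0.30 at 3 days and −0.53 at 5 days against 0 days. At a fold of 4 with the deposited RPKM, 0 members were lower at 3 days, against 0.291% of all genes. At 5 days 2 were (Nfkbia and Nfkbiz), against 1.62%, and 1 (Nfkbiz) between 3 and 5 days, against 0.923%. Tnfaip3 had a 5-day log2 ratio of −1.81, but −2.12 with TMM scaling, which is beyond a fold of 4. By counting error alone, the interval lay below 0 for 7 members and above 0 for 2 at 3 days and again at 5 days, both against 0 days. At this depth most genes had an interval on one side of 0, with 26.2% below and 41.1% above it at 3 days and 22.3% below and 55.1% above it at 5 days.

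Nfkbia encodes IkB-alpha, the inhibitor that NF-kB resynthesizes most quickly after a stimulus. It lies on chromosome 12 from 55489410 to 55492647 (GENCODE M21, GRCm38), and its gene length in the tables is 1592 bases. The libraries of days 0, 3 and 5 held 24495, 9667 and 4239 of its reads, or 991, 401 and 172 RPKM. Each later library was lower than the one before it. The level at 3 days was 2.47-fold below that of 0 days, with a log2 ratio of −1.31 (95% interval −1.34 to −1.27), and that of 5 days was 5.78-fold below it, with a log2 ratio of −2.53 (−2.58 to −2.48). In log2 units 51.6% of the difference between days 0 and 5 was present on day 3. A lower log2 ratio than that of Nfkbia was found in 0.673% of the 11144 genes on day 3 and in 0.763% on day 5. Nfkbia was still the most abundant of the 10 in every library.

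Nfkbiz encodes IkB-zeta, a nuclear IkB protein that binds NF-kB on chromatin and is needed for a set of secondary response genes such as Il6. It lies on chromosome 16 from 55811375 to 55838899. Its reads numbered 11225, 7921 and 2022 on days 0, 3 and 5, or 188, 136 and 33.8 RPKM. The day 3 library was 1.38-fold below that of day 0, and the day 5 library far below both. The log2 ratio was −0.47 (−0.51 to −0.43) at 3 days and −2.47 (−2.54 to −2.40) at 5 days, or 5.55-fold lower, and 18.9% of this was present on day 3. Between 3 and 5 days the level was 4.01-fold lower, the largest difference of any member over that interval, with a log2 ratio of −2.00 (−2.08 to −1.93).

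Tnfaip3 encodes A20, which removes and adds ubiquitin chains on signalling proteins upstream of IKK and so limits NF-kB activation. It lies on chromosome 10 from 19000910 to 19015657. It had 11741, 8201 and 3341 reads, or 170.5, 122 and 48.5 RPKM, at 0, 3 and 5 days. Its course was like that of Nfkbiz, with most of the difference after 3 days. The log2 ratio was −0.48 (−0.52 to −0.44) at 3 days and −1.81 (−1.87 to −1.76) at 5 days, 3.51-fold lower, and 26.6% of this was present on day 3. Of the 3, Nfkbia had the largest difference by day 3, and Nfkbiz and Tnfaip3 had most of theirs between days 3 and 5.

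Nfkbib and Nfkbie encode IkB-beta and IkB-epsilon, the other cytoplasmic inhibitors of the classical dimers. They lie on chromosome 7 from 28758251 to 28767512 and on chromosome 17 from 45555703 to 45563169. On days 0, 3 and 5 Nfkbib had 28.5, 22.1 and 19.1 RPKM, and Nfkbie had 28.1, 25.2 and 20.5 RPKM. Both were lower in each later library, by less than 2-fold. At 3 days the log2 ratio of Nfkbib, −0.37 (−0.52 to −0.22), overlapped that of Nfkbiz within counting error. At 5 days both differed by less than Nfkbia, Nfkbiz and Tnfaip3, and the log2 ratio was −0.58 (−0.73 to −0.42) for Nfkbib and −0.45 (−0.59 to −0.32) for Nfkbie. Their levels did not differ from each other beyond counting error at 0 days, where the ratio of Nfkbib to Nfkbie was 1.02 (0.928 to 1.11).

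**Figure D2:**
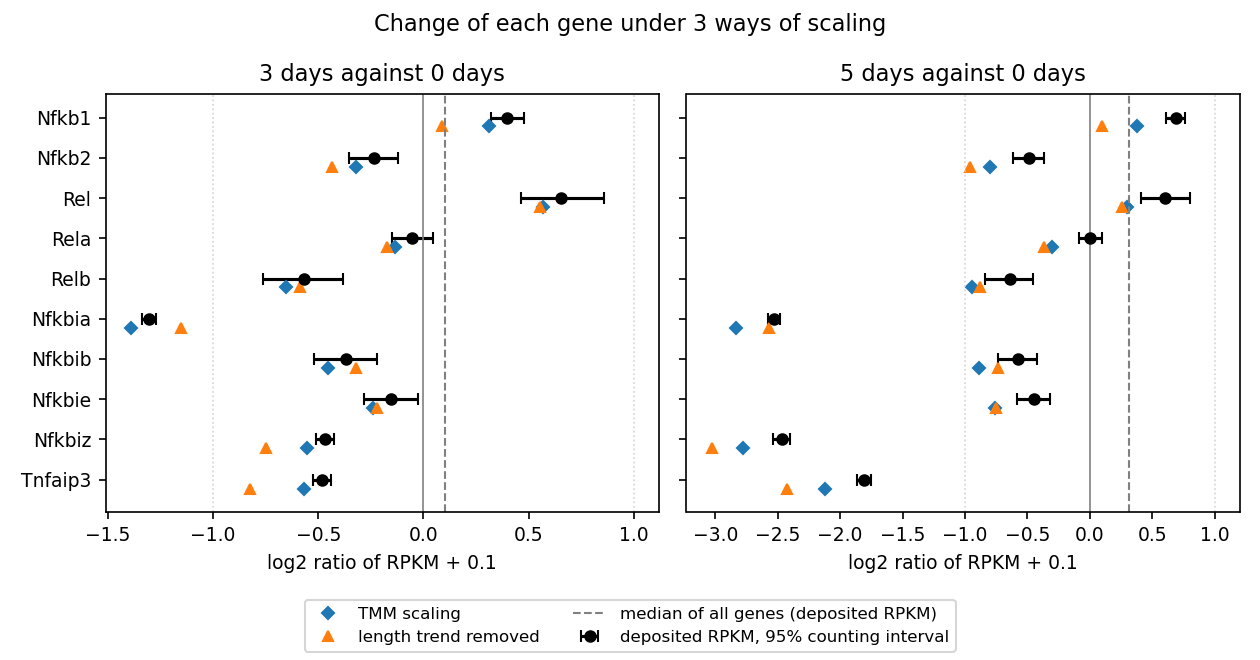
Log2 ratio of each gene at 3 days (left) and 5 days (right) against 0 days, with the deposited RPKM and its 95% counting interval (black), with TMM scaling (blue diamonds) and with the gene length trend removed (orange triangles). Solid line, no change, and dashed line, median of all genes. Nfkbia, Nfkbiz and Tnfaip3 lie beyond −1 at 5 days under all 3, while Nfkb1 and Rel lie above 0 under all 3.

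Rela encodes the main transactivating subunit of the classical dimer. It lies on chromosome 19 from 5637483 to 5648130. It was the steadiest of the 10 with the deposited RPKM, with 1828, 1720 and 1832 reads, or 43.5, 41.9 and 43.6 RPKM, at 0, 3 and 5 days. The log2 ratio was −0.05 (−0.15 to 0.04) at 3 days and 0.00 (−0.09 to 0.10) at 5 days, both within counting error of 0. Against the median of all genes, Rela was lower at 5 days, at −0.31, so its direction at 5 days depends on the scaling.

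Nfkb1, whose product is cut to the DNA-binding partner of Rela, was higher after LECT2. It lies on chromosome 3 from 135584655 to 135691547, and had 2282, 2936 and 3677 reads, or 35.6, 47.0 and 57.4 RPKM. Each later library was higher with the deposited RPKM, with a log2 ratio of 0.40 (0.32 to 0.48) at 3 days and 0.69 (0.61 to 0.77) at 5 days. Nfkb1 has 4128 bases in the tables, which places it among the 2785 longest. Between 3 and 5 days the ratio was 0.29, and −0.0043 without the trend on gene length. With TMM scaling the 5-day value was 0.38, and without the trend on gene length it was 0.09 on day 3 and 0.10 on day 5. Against the median of all genes, with no account of length, it was 0.30 on day 3 and 0.37 on day 5. Of the 11144 genes, 28.5% had a higher log2 ratio on day 5.

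Rel encodes c-Rel, a subunit of lymphocytes and myeloid cells. It lies on chromosome 11 from 23736847 to 23770970. It was the least abundant member at 0 days, with 350 reads or 8.73 RPKM, and had 539 reads (13.8 RPKM) on day 3 and 533 reads (13.3 RPKM) on day 5. Both LECT2 libraries were above that of 0 days. Between 3 and 5 days the log2 ratio was −0.05 (−0.23 to 0.12) with the deposited RPKM, which holds 0, but −0.27 with TMM scaling and −0.31 without the trend on gene length, so whether the 5-day level was lower depends on the scaling. The log2 ratio was 0.65 (0.46 to 0.86) at 3 days and 0.60 (0.41 to 0.81) on day 5, and without the trend on gene length it was 0.55 and 0.26. On day 3 its log2 ratio was the highest of the members, with 13.1% of the 11144 genes above it.

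Nfkb2 and Relb encode the partners of the alternative NF-kB pathway, which is driven by receptors such as those for lymphotoxin and BAFF, and both are known targets of the classical dimers. They lie on chromosome 19 from 46304320 to 46312385 and on chromosome 7 from 19606217 to 19629438. On days 0, 3 and 5 Nfkb2 had 26.7, 22.7 and 19.0 RPKM, and Relb had 16.8, 11.3 and 10.8 RPKM. Both were lower in the LECT2 libraries, Nfkb2 by similar steps and Relb mainly by day 3, when 88.7% of its log2 difference was present with the deposited RPKM. Between 3 and 5 days the ratio of Relb was −0.07 (−0.28 to 0.14), but −0.29 with TMM scaling and −0.32 without the trend on gene length. The log2 ratio at 5 days was −0.49 (−0.61 to −0.37) for Nfkb2 and −0.64 (−0.84 to −0.45) for Relb. Among the subunits, Nfkb1 and Rel were thus higher and Nfkb2 and Relb lower at 5 days under all the scalings run, each by less than 2-fold.

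Since the scaling of the libraries moves every ratio, each gene was also set against Rela within its own library. The Nfkbia to Rela ratio was 22.8 (21.7 to 23.9) at 0 days, 9.56 (9.08 to 10.1) at 3 days and 3.94 (3.73 to 4.16) at 5 days. The Nfkbiz to Rela ratio was 4.32, 3.24 and 0.776, so that Nfkbiz went from above Rela to below it. The Tnfaip3 to Rela ratio was 3.92, 2.91 and 1.11. All 3 genes were lower relative to Rela in each later library, and the intervals of the 3 time points did not overlap for any of them. In the other direction, Nfkb1 was at 0.819 (0.770 to 0.872) of the Rela level at 0 days, 1.12 (1.06 to 1.19) at 3 days and 1.32 (1.25 to 1.39) at 5 days. Relb was at 0.387, 0.270 and 0.247 of it. The composition of the subunit mRNA shifted accordingly, with Nfkb1 at 27.1% of the summed subunit RPKM at 0 days and 39.8% at 5 days, Nfkb2 at 20.4% and 13.2%, Relb at 12.8% and 7.46%, and Rela at 33.1% and 30.3%. A ratio to Rela shows unequal change and not that Rela itself was constant. Nor does it remove the trend on gene length, and Nfkb1 (4128 bases) is longer than Rela (2709 bases). Without that trend the log2 ratio at 3 days was 0.09 for Nfkb1 and −0.17 for Rela, and at 5 days 0.10 and −0.37. The ratios to Rela were not computed without it.

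**Figure D3:**
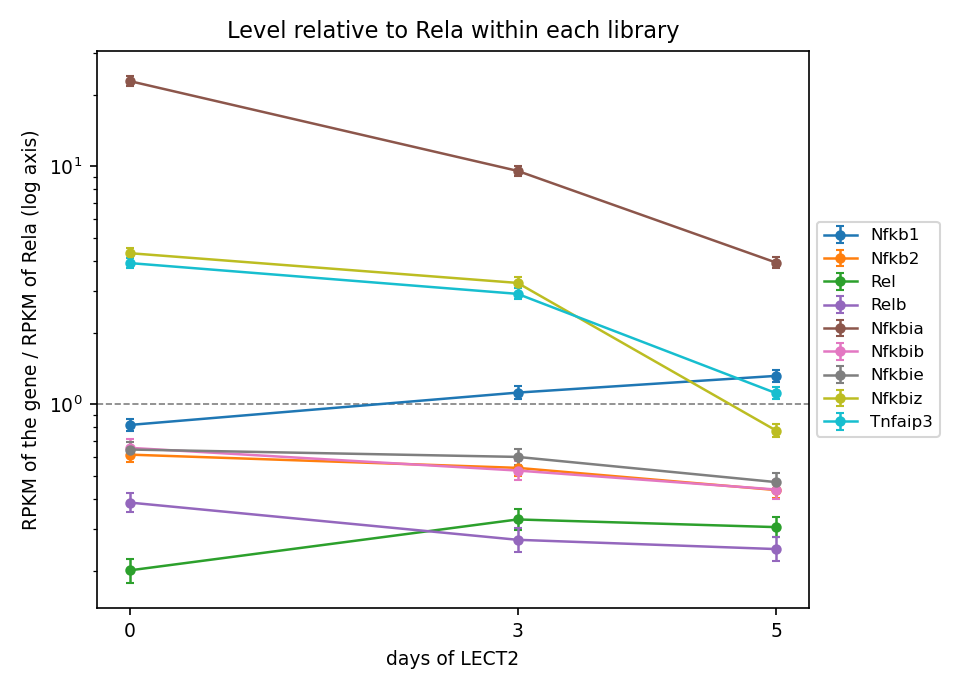
RPKM of each gene divided by the RPKM of Rela in the same library (log axis) against days of LECT2, with exact 95% counting intervals. The dashed line marks equality with Rela. Nfkbia goes from 22.8 to 3.94 and Nfkbiz crosses the line, while Nfkb1 crosses it upward. The trend on gene length is not removed.

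The order of the levels also changed. At 0 days it ran Nfkbia, Nfkbiz, Tnfaip3, Rela, Nfkb1, Nfkbib, Nfkbie, Nfkb2, Relb and Rel, where Nfkbib and Nfkbie, and Nfkbie and Nfkb2, did not differ beyond counting error. At 3 days Nfkb1 stood above Rela and Rel above Relb, and Nfkb2 and Nfkbib could not be ordered. At 5 days it ran Nfkbia, Nfkb1, Tnfaip3, Rela, Nfkbiz, Nfkbie, Nfkbib, Nfkb2, Rel and Relb, where Nfkbie and Nfkbib, and Nfkbib and Nfkb2, did not differ beyond counting error. Nfkbiz had moved from the second to the fifth place and Nfkb1 from the fifth to the second. This order uses the deposited RPKM, in which the trend on gene length is not removed.

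**Figure D4:**
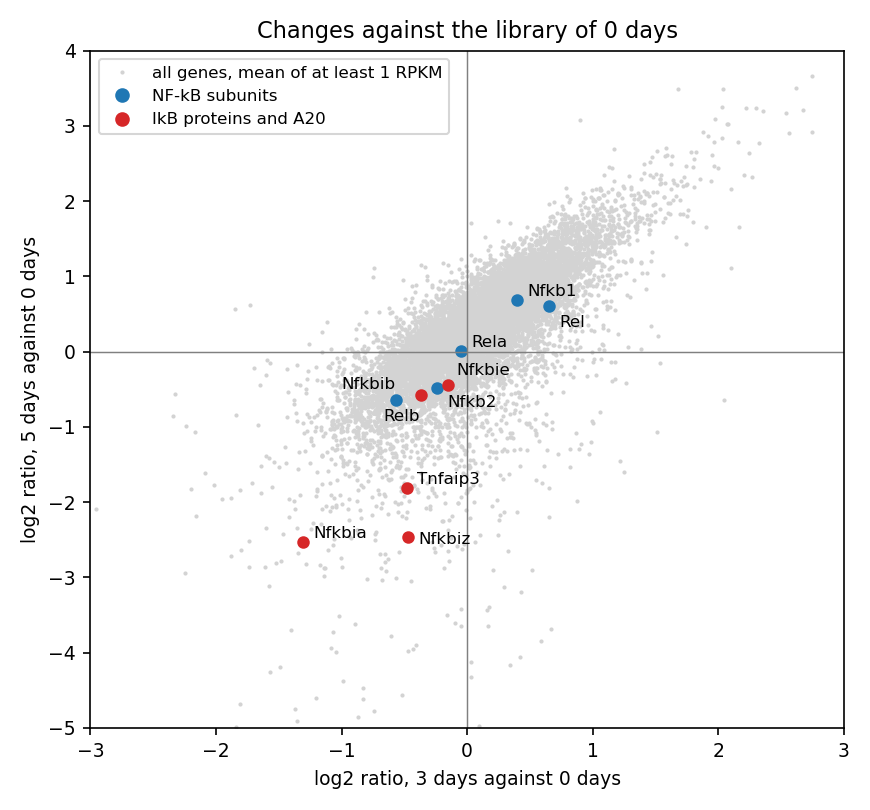
Log2 ratio at 5 days against that at 3 days, both against 0 days, for the 11144 genes whose mean reached 1 RPKM (grey, 9 outside the axes), with subunits in blue and the IkB genes and Tnfaip3 in red. Both axes share the 0-day library, so the slope of the cloud is not evidence. Nfkbia, Nfkbiz and Tnfaip3 lie below the body of the cloud, at −2.53, −2.47 and −1.81 on the vertical axis.

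The genes nearest to Nfkbia, Nfkbiz and Tnfaip3 in this plane were looked up among the 8182 genes whose mean reached 5 RPKM. For Nfkbia they were Rorb, Rasgef1b and Cd69, at distances of 0.19, 0.29 and 0.33 log2 units. Cd69, an early activation marker of leukocytes, had 406, 179.8 and 56.7 RPKM on days 0, 3 and 5. For Nfkbiz they were Fosb, AA467197 and 1700047M11Rik, at 0.20, 0.21 and 0.24. For Tnfaip3 they were Spp1, Pglyrp1 and Lcn2, at 0.05, 0.06 and 0.06. Pglyrp1 and Lcn2 encode granule proteins of neutrophils, and Lcn2 is in the list of late neutrophil markers, while Spp1, which encodes osteopontin, is in that of osteolineage markers. The likeness rests on 3 libraries, and many genes lie close by.

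The other genes of the NF-kB pathway are given by list, in the order from kinases to targets, and list medians cover genes whose mean reached 1 RPKM. The 2 further IkB genes were Nfkbid, at 154, 123 and 59.5 RPKM on days 0, 3 and 5 (log2 ratio −1.37 on day 5), and Bcl3, at 18.3, 23.0 and 16.5 RPKM (−0.14). Of 11 IKK and upstream kinase genes, 0 were at least 2-fold lower and 1 at least 2-fold higher at 5 days, against the 5.91% and 15.5% of all genes, with a median log2 ratio of 0.54. The one was Ikbke, an IKK-related kinase, at 8.39, 14.4 and 21.6 RPKM (1.35), and Tab2, an adaptor of the TAK1 kinase and the most abundant of the list, was at 53.5, 70.4 and 77.7 RPKM (0.54). Map3k7, which encodes TAK1, was at 10.2, 14.9 and 20.2 RPKM (0.99), and Ikbkb, which encodes the catalytic IKK-beta, at 22.0, 30.1 and 37.2 RPKM (0.75). Without the trend on gene length the median of this list was 0.08 and 0 were at least 2-fold higher.

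The 20 adaptors and ubiquitin ligases held 0 genes at least 2-fold lower and 0 higher at 5 days, against 5.91% and 15.5% of all genes. Their median of 0.21 turned to −0.10 with TMM scaling and −0.21 without the trend on gene length. Sharpin, a part of the linear ubiquitin ligase, was the most abundant, at 48.9, 48.1 and 58.6 RPKM. Traf3, Malt1 and Ripk1, all signalling scaffolds upstream of IKK, had log2 ratios of 0.93, 0.80 and 0.78, and of 0.13, 0.13 and 0.16 without the trend on gene length. Among the 9 receptor genes that reached 1 RPKM on day 0 or day 5, 2 were at least 2-fold higher and 1 was lower. The shares of all genes were 15.5% and 5.91%. The receptor median was 0.70, or 0.39 with TMM scaling and 0.31 without the trend on gene length. Tnfrsf1b, a TNF receptor of leukocytes, was at 20.2, 29.98 and 47.2 RPKM (1.22), and Tlr2, a receptor for bacterial lipopeptides, was at 47.1, 54.9 and 20.9 RPKM (−1.17). Il1rap, the accessory chain of the IL-1 receptor, had 4.07, 6.84 and 8.20 RPKM (0.99). Tnfrsf13c, the BAFF receptor of B cells and the most abundant of the list, was at 66.8, 61.2 and 54.3 RPKM (−0.30). With TMM scaling or the length trend removed, no receptor was at least 2-fold higher and 1 remained lower.

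Among the 7 ligand genes that reached 1 RPKM on day 0 or day 5, 5 were at least 2-fold lower and 0 higher. The shares of all genes were 5.91% and 15.5%. The ligand median was −1.52. Tnf and Il1b, which encode the cytokines TNF and IL-1-beta, were at 7.18% and 9.32% of their 0-day RPKM, and Tnfsf13b, which encodes BAFF, was at 21.7, 21.9 and 9.20 RPKM (−1.23). Tnf and Il1b, like Nfkbiz and Tnfaip3, had the larger difference between 3 and 5 days, with log2 ratios of −3.17 and −3.37 over that interval.

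Among 11 other negative regulators that reached 1 RPKM, 1 was at least 2-fold lower and 0 higher at 5 days, against 5.91% and 15.5% of all genes. The median of this list, 0.29, turned to −0.01 with TMM scaling and −0.17 without the trend on gene length. Zc3h12a, which encodes the ribonuclease regnase-1, was the one, at 39.7, 30.3 and 17.9 RPKM (−1.14). Irak3, an inhibitor of IL-1 and Toll-like receptor signalling, had 14.97, 26.2 and 25.9 RPKM (0.79), and Tank, a TRAF-binding regulator, had 21.5, 35.9 and 36.0 RPKM (0.74). Tax1bp1, a partner of A20 and the most abundant of the list, was at 94.4, 92.4 and 89.9 RPKM. Of 17 target genes other than cytokines, 7 were at least 2-fold lower and 0 higher at 5 days, against 5.91% and 15.5% of all genes. The median of these targets was −0.54. Among them Cd83, an activation marker, was at 43.7, 21.9 and 5.90 RPKM (−2.87), Ptgs2, which encodes cyclooxygenase-2, at 33.0, 39.2 and 6.03 RPKM (−2.44), and Gadd45b, a stress-response gene, at 52.5, 28.7 and 9.83 RPKM (−2.41). Pim1, a survival kinase and the most abundant target, was at 256, 245 and 147 RPKM (−0.80).

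**Figure D5:**
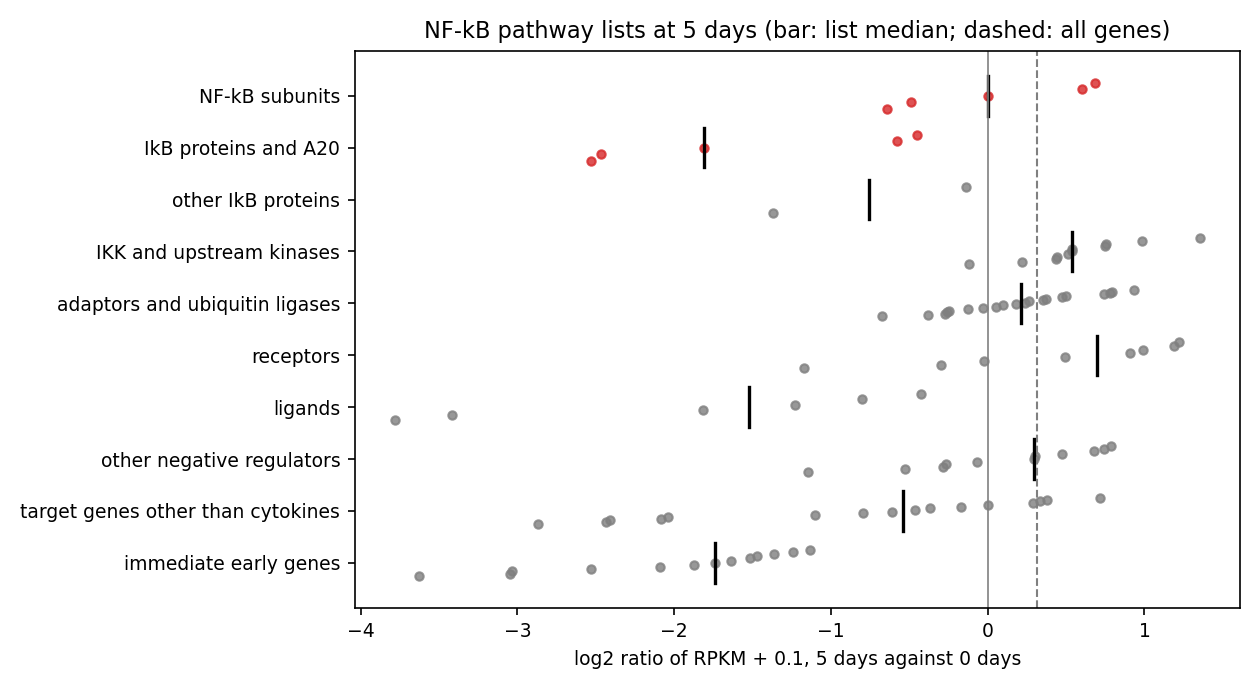
Log2 ratio at 5 days against 0 days of each gene whose mean reached 1 RPKM, by list, with the members in red, a black bar for the median of each list and a dashed line for the median of all genes. The medians of ligands and immediate early genes, at −1.52 and −1.74, lie below 0 like that of the IkB and A20 genes, at −1.81, and those of kinases (0.54) and adaptors (0.21, or −0.10 with TMM scaling) above it.

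Other gene lists are given beside Nfkbia, Nfkbiz and Tnfaip3. The 13 immediate early genes respond within minutes to stimuli and to the handling of cells. All 13 were at least 2-fold lower on day 5 than on day 0, against 5.91% of all genes. The 13 summed to 5660, 4840 and 1551 RPKM on days 0, 3 and 5. Klf2, Egr1 and Fosb had log2 ratios of −3.63, −3.05 and −2.53, and Zfp36, the most abundant, −1.64. On day 3 the count at least 2-fold lower was 0 of 13, against 2.41% of all genes. The lowest of the 13 was Klf2 at −0.89, whereas Nfkbia was at −1.31. The median of the 13 was then −0.28, with 10 below 0, and Fos, Jun and Dusp1 were at 127%, 109% and 111% of their 0-day RPKM. The summed level of the late neutrophil markers was 77.3% of that at 0 days at 3 days and 27.6% at 5 days, beside 40.4% and 17.3% for Nfkbia, 72.3% and 18.0% for Nfkbiz, and 71.6% and 28.5% for Tnfaip3. S100a9 and S100a8 held most of this sum. Among the markers that reached 1 RPKM, the 5-day level ran from 6.21% (Il1r2) to 47.2% (Ngp) of the 0-day RPKM. At 3 days 8 of the 11 late neutrophil genes that reached 1 RPKM had a log2 ratio below 0, among them Il1r2 at 48.5% and Camp at 54.5% of the 0-day RPKM. Cxcr2 at 176%, Mmp9 at 158% and Mmp8 at 105% were above it. The list's median log2 ratio was −0.26, or 0.13 without the trend on gene length. The part of late neutrophils and of the handling of the cells in the lower levels of these genes was not tested. Markers of T and NK cells summed to 58.5% of the 0-day level at 3 days, with all 11 genes below 0 and a median log2 ratio of −0.68. At 3 days 3 of them were at least 2-fold lower, against 2.41% of all genes. At 5 days these markers summed to 77.1%, with a median of −0.53. B cell markers summed to 80.5% at 3 days and 72.1% at 5 days, a sum held mostly by Cd79a and Cd79b, with median log2 ratios of −0.32 and −0.23. Osteolineage markers summed to 94.6% and 37.7%, with medians of −0.22 and −1.31. At 3 days Col1a1 was at 155%, while 5 of the 7 osteolineage genes that reached 1 RPKM were below 0. At 5 days 6 of these 7 were at least 2-fold lower, against 5.91% of all genes. Promyelocyte markers summed to 92.6% at 3 days and 162% at 5 days, when Mpo was at 285% and Ms4a3 at 103%. At 5 days 1 of the 5 was at least 2-fold higher, against 15.5% of all genes. The median log2 ratio of the 5 was 0.45, or 0.14 with TMM scaling. Endothelial and stromal markers summed to 80.0% at 3 days and 85.7% at 5 days, the latter a sum carried by Pecam1 at 109%, while Cxcl12 was at 33.8% and Lepr at 47.2% and the median log2 ratio was −0.53. None of these markers was at 0 reads in any library. The 9 erythroid markers summed to 81.1% of the 0-day level at 3 days and 35.8% at 5 days, the latter a sum carried by Hbb-b1 and Hba-a1, while the median log2 ratio of the list was −0.03, or −0.34 with TMM scaling, and none was at 0 reads.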

How the data were processed

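RNA-sequencing libraries of flushed BM cells (1 per time point, 3 in all) were analysed from 3 tables that the authors deposited, each holding a pair of time points. The deposited counts are whole reads per gene. The RPKM that the authors deposited could be recomputed from read count, gene length and the summed reads of the table (within 0.1%, apart from 18 rows at 0 days and 14 at 3 days with at most 36 reads), and genes without reads, which the authors list at 0.01 RPKM, were set to 0. The study calls the cells flushed BM cells in its methods and labels and mononuclear cells elsewhere. The study's methods name Cufflinks for quantitation, and the submitters' processing notes name the build mm8. The aligner is not given in the sources used here. The authors' log2 ratios, P values and false discovery rates compare 2 libraries and were not used.

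Where a symbol had more than 1 row, that of highest mean RPKM was used. No test was made, since there is 1 library per time point. Fold counts used genes that reached 1 RPKM in either library, and list medians those whose mean did. Alternatives were pseudocounts of 1 and 0.01 RPKM, TMM (edgeR 4.0.16) and median-of-ratios (DESeq2 1.42.0) scaling, scaling without the 100 most abundant genes, removal of the trend on gene length (lowess, span 0.3, statsmodels 0.14.6), the sum of rows, a fold of 4, a minimum of 5 RPKM and no minimum. The named pathway genes were the most abundant gene of each list and up to 3 with the largest change at 5 days among those whose mean reached 5 RPKM. The 3 genes nearest to a member were those with the smallest Euclidean distance in the log2 ratios at 3 and 5 days. The members and lists were chosen with earlier results of these data known. Positions are from GENCODE M21 (GRCm38) and may differ from the authors' build. The scripts were tested on simulated data. Python 3.11.15 and R 4.3.3 were used.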

Additional observations from a re-analysis of the deposited data

How the results depend on the processing

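The number of members at least 2-fold lower (1 for day 3 and 3 for day 5 against day 0, 3 for day 5 against day 3) stayed the same under each pseudocount, each scaling, the removal of the length trend and the sum of rows. With a fold of 4 and the deposited RPKM, 0 were lower at 3 days (0.291% of all genes). At 5 days 2 were (Nfkbia and Nfkbiz, without Tnfaip3, 1.62%), and 1 (Nfkbiz) between 3 and 5 days (0.923%). The 5-day ratio of Tnfaip3 passed this fold with TMM scaling (−2.12), median-of-ratios scaling (−2.11), the 100 most abundant genes left out (−2.01) and the length trend removed (−2.43). The share of all genes at a fold of 4 was not computed under those settings. The median log2 ratio of the members at 5 days against 0 days, −0.53, was −0.84 with TMM scaling, −0.83 with DESeq2's median-of-ratios factors, −0.81 without the trend on gene length and −0.73 when the 100 most abundant genes were left out of the scaling. Between 3 and 5 days, −0.23 became −0.45, −0.45 and −0.49 with TMM scaling, median-of-ratios scaling and the length trend removed. Of 30 log2 ratios of single members, 24 moved beyond their counting interval with TMM scaling, 24 with DESeq2's factors and 20 when the 100 most abundant genes were left out. With the length trend removed 25 did, and among them Nfkb1 between 3 and 5 days changed sign from 0.29 to −0.0043. Removing this trend also takes out the shift shared by all genes, a median of 0.25 in that comparison. Against that median alone the Nfkb1 ratio was 0.04. Rela, whose counting intervals held 0, also changed sign at 5 days, from 0.00 to −0.37 against 0 days and from 0.06 to −0.21 against 3 days, and did so with TMM scaling, DESeq2's factors and the 100 most abundant genes left out. Under TMM scaling the share of all changed genes that were higher at 5 days against 0 days went from 72.4% to 42.1%, at 3 days from 62.9% to 49.4%, and between 3 and 5 days from 36.1% to 11.9%. With a minimum of 5 RPKM, the share of all genes at least 2-fold lower on day 3 was 1.42%, and with no minimum 4.10%, and the share at least 2-fold higher between 3 and 5 days was 1.08% and 3.43%. No paired analysis was possible because each time point has 1 library, and no library could be left out of a time point.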
